A study of Homo sapiens with 6 samples.

Results

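The transcripts of the mitochondrial genome were taken from the gene count table of HEK293 cells as the genes whose symbol begins with MT- and then ND, CO, CYB, ATP, RNR or T. This rule found 37 genes of 60564 in the table, of which 13 are mRNAs, 2 are ribosomal RNAs and 22 are transfer RNAs. HEK293 is an established cell line from human embryonic kidney. One group was wild type, named NC_HA in the sample titles, and the other carried stable overexpression of SFXN2, named OE_HA, with 3 libraries each. SFXN2 encodes sideroflexin 2, a carrier protein of mitochondrial membranes. The labels name no vector control and no promoter of the construct. They also do not say whether replicates came from separate cultures, and the spread behind each p-value is that of these libraries, which may be technical. Total RNA was depleted of ribosomal RNA before the libraries were made, so the counts of the mitochondrial ribosomal RNAs are those left after that step. The sources used here do not say whether the depletion probes covered these RNAs. The kit does not mark the strand.

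Mitochondrial DNA is a small circle present in many copies per cell. The mitochondrial RNA polymerase POLRMT, with TFAM and TFB2M, transcribes both of its strands into long precursors that hold many genes. Transfer RNAs lie between most of the other genes, and cutting them out releases the mRNAs and ribosomal RNAs. The mRNAs all encode core subunits of the respiratory chain and of ATP synthase, and the ribosomal RNAs and transfer RNAs serve their translation inside the organelle.

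SFXN2 stood between 27.8 and 44.7 CPM in the wild-type libraries and between 1523 and 1909 CPM in the overexpression libraries, so every library matched its label (CPM, the count relative to the library size after TMM scaling, which sets the libraries to a common size). Library totals ran from 32121527 to 41217867 counts in wild type and from 40043248 to 59963713 with overexpression. All 7 listed HEK293 markers were counted in every library, the lowest being PAX2 at 4.11 to 6.51 CPM. Of the 4 blood markers CD79A was counted in every library, and the list summed to 0.222 to 0.559 CPM in wild type and 0.360 to 0.800 CPM with overexpression, with HBB at 0 throughout. The 2 liver markers summed to 0.170 to 0.243 and then 0.245 to 0.636 CPM, the 2 endothelial markers to at most 0.236 CPM and the 2 muscle markers to at most 1.48 CPM. The 3 fibroblast markers summed to 14.3 to 19.8 CPM in wild type and 11.6 to 20.4 CPM with overexpression, most of it COL1A1, which stood above PAX2. Overexpression replicates 2 and 3 were the deepest libraries, with 28985 and 29154 genes counted, against 24466 to 26127 in the other 4.

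Within the mitochondrial genome the ribosomal RNAs took a larger share of the reads in the overexpression libraries, while their share of all counts overlapped between the groups. The ribosomal RNAs took 12.7%, 13.2% and 11.9% of the mitochondrial-genome count in the wild-type libraries, given here and throughout in the order of replicates 1 to 3. With overexpression the shares were 14.5%, 15.8% and 16.7%. On this scale every overexpression library lay above every wild-type library. The means were 12.6 ± 0.68% and 15.6 ± 1.12% (SD, n = 3 each), 1.24-fold higher with overexpression (exact permutation test, two-sided, p = 0.1, the smallest value that 3 against 3 can give). The mRNAs took 87.1 ± 0.70% and 84.0 ± 1.13% (SD, n = 3 each), which is the same difference seen from the other side, since the shares sum to a whole. Over all counts in place of the mitochondrial-genome count the separation was lost: the ribosomal RNAs held 0.834%, 1.11% and 0.800% in wild type and 1.07%, 1.17% and 1.10% with overexpression, with wild-type replicate 2 above overexpression replicates 1 and 3 (exact permutation test, p = 0.3). Overexpression replicate 1 alone, taken without replicates 2 and 3 after the data were seen, was 1.86 percentage points of the mitochondrial-genome count above the wild-type mean (exact permutation test of 1 library against 3, p = 0.25, the smallest it can give). As a whole the mitochondrial genome held 6.58%, 8.36% and 6.72% of all counts in wild type and 7.36%, 7.43% and 6.61% with overexpression, and these values overlapped (exact permutation test, p = 0.9). In bulk RNA, more copies of a transcript per cell and more cells that hold it cannot be told apart.

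No gene of the mitochondrial genome passed the test across all genes. Of the 37 members, 33 passed the filter on low counts and were tested, and 0 reached an adjusted p of 0.05 in the quasi-likelihood test of edgeR (Benjamini-Hochberg adjustment), against 0.0106% of all 18797 tested genes. DESeq2 and limma-voom also called 0 members, while DESeq2 called 0.0479% of all genes and limma-voom 0.016%. At shares this low, 0 of 33 does not set the members apart in any of these fits, nor with the block for replicate number given next. In edgeR 1 member, MT-RNR1, had an unadjusted p below 0.05, against 4.76% of all tested genes. With a block for replicate number, MT-RNR1 was again the 1 such member, against 8.32% of all tested genes, and again 0 members passed, against 0.00532%. The TMM-scaled CPM of the 2 groups overlapped for all 33 tested members, whereas 9.16% of all tested genes had no overlap, 4.91% being higher and 4.25% lower with overexpression. For all 13 mRNAs the whole 95% interval of the log2 fold change was inside -1 to 1, and so it was for both ribosomal RNAs and 14 of 18 tested transfer RNAs, against 72.6% of all tested genes.

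**Figure D1:**
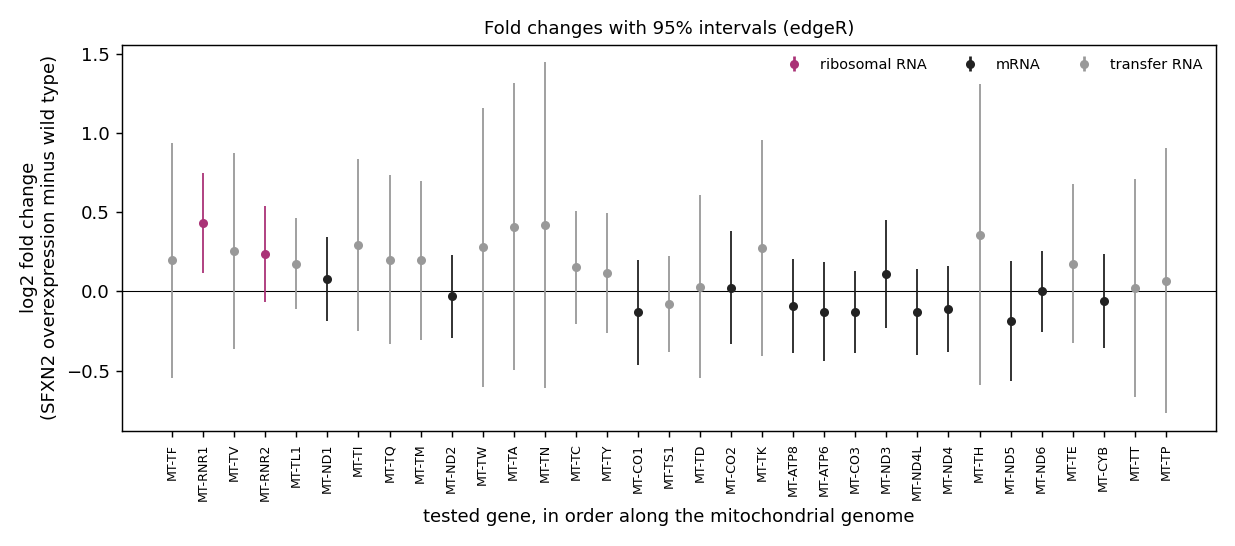
Log2 fold change (SFXN2 overexpression minus wild type, y axis) of the 33 tested genes in their order along the mitochondrial genome (x axis); points are edgeR estimates and bars 95% intervals, coloured by RNA class. MT-RNR1, at 0.43, has the one interval that does not reach 0, and the mRNAs lie between -0.19 and 0.11.

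The ribosomal RNA genes sit at the start of the heavy-strand transcript. MT-RNR1 (ENSG00000211459, GRCh38 chrM:648-1601) encodes the 12S RNA of the small mitochondrial ribosomal subunit. It stood at 905, 1168 and 959 CPM in wild type and at 1119, 1509 and 1458 CPM with overexpression. The highest values were those of overexpression replicates 2 and 3, while overexpression replicate 1 lay below wild-type replicate 2. Its log2 fold change was 0.43 with an SE of 0.14 (95% interval 0.11 to 0.75), and with adjusted p = 0.93 by edgeR it did not pass (unadjusted p = 0.013). It ranged from 0.35 to 0.55 when single libraries were left out and was 0.15 without overexpression replicates 2 and 3. Of the small RNAs without a poly(A) tail RN7SK and RN7SL1, RN7SK was also highest in overexpression replicates 2 and 3, at 0.755 and 0.851 CPM of all counts without TMM scaling, against 0.0499 to 0.391 in the other 4. These RN7SK values rest on few reads, 40 and 51 counts against 2 to 14 in the other 4. RN7SL1 did not follow, at 1.31, 1.46 and 4.27 CPM in wild type and 2.80, 2.28 and 6.92 CPM with overexpression. The part of these RNAs and of depth in the MT-RNR1 result was not tested.

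MT-RNR2 (ENSG00000210082, chrM:1671-3229) encodes the 16S RNA of the large mitochondrial ribosomal subunit. Its levels were 7574, 9918 and 7143 CPM in wild type and 9863, 9777 and 9365 CPM with overexpression. Wild-type replicate 2 was the highest of the 6 libraries, while the other wild-type libraries lay below the overexpression range. The log2 fold change was 0.24 (SE 0.14, adjusted p = 0.93 by edgeR). As a share of the mitochondrial-genome count MT-RNR2 took 11.3%, 11.9% and 10.48% in wild type and 12.99%, 13.7% and 14.4% with overexpression, so that on this scale the groups did not overlap. MT-RNR1 took 1.35%, 1.40% and 1.41% in wild type and 1.47%, 2.11% and 2.25% with overexpression, again without overlap. The wild-type libraries lay within a narrow range here, and overexpression replicate 1 was close above it. The count of MT-RNR1 relative to MT-RNR2 was 12.4 ± 0.91% and 14.1 ± 2.40% (SD, n = 3 each), with 11.3% in overexpression replicate 1 and 15.4% and 15.6% in replicates 2 and 3, so that this ratio overlapped (exact permutation test, p = 0.4). Cytosolic ribosomal RNA gene models held 0.00037% to 0.00061% of all counts over the 6 libraries, with overlapping groups.

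Of the 33 tested members, 5 (15.2%) had shares of the mitochondrial-genome count that did not overlap between the groups, none of them a transfer RNA, against 6.35% of all tested genes when their counts were divided by the same total (2.96% higher and 3.39% lower with overexpression). Beside both ribosomal RNAs these were MT-ND1, higher with overexpression, and MT-CO3 and MT-ND4L, lower. Each of these 5 had an exact permutation p of 0.1, the smallest possible. The members are part of the total they were divided by and the other genes are not, so 15.2% and 6.35% are not like measures. Shares of one total depend on each other, and against the mRNA count alone MT-ND1, both ribosomal RNAs and the transfer RNA MT-TC were the 4 tested members without overlap (12.1%), all higher, where 6.18% of all tested genes had none and 4.05% were higher. The 95% Wilson interval of a share was at most 0.115 percentage points wide, which covers counting error only, since the reads carry no molecular identifiers and are not independent molecules.

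**Figure D2:**
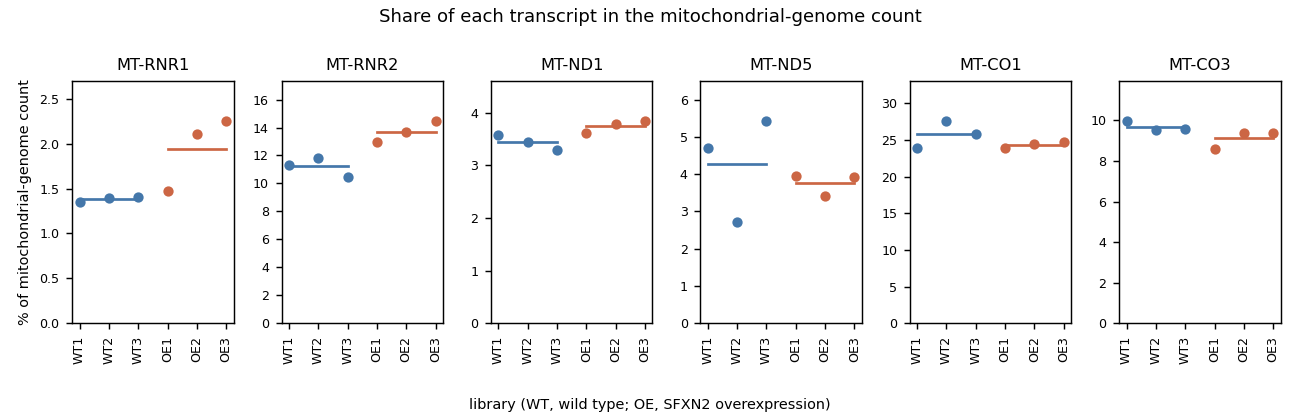
Share of 6 transcripts in the mitochondrial-genome count (percent, y axes from 0) in each library (x axis; WT wild type, OE SFXN2 overexpression); points are libraries and lines group means of 3. MT-RNR1, MT-RNR2 and MT-ND1 lie higher and MT-CO3 lower in every overexpression library, while MT-ND5 and MT-CO1 overlap, with wild-type replicate 2 at 2.71% and 27.5%.

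The mRNAs of complex I, the NADH dehydrogenase that starts the respiratory chain, made up 28.6 ± 2.07% and 28.8 ± 0.39% of the mitochondrial mRNA count (SD, n = 3 each). MT-ND1 (ENSG00000198888, chrM:3307-4262), a membrane subunit next to the quinone site, is the mRNA that directly follows the ribosomal RNAs. It stood at 2387, 2885 and 2241 CPM in wild type and at 2739.6, 2710.4 and 2488 CPM with overexpression. These levels overlapped, with a log2 fold change of 0.079 (SE 0.12, adjusted p = 0.96 by edgeR). Its share of the mitochondrial-genome count was 3.57%, 3.45% and 3.29% in wild type and 3.61%, 3.79% and 3.84% with overexpression, and the lowest overexpression value was just above the highest wild-type one.

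MT-ND2, MT-ND4 and MT-ND5 encode the subunits that resemble proton antiporters. MT-ND2 stood at 3136, 3492 and 2867 CPM in wild type and 3325, 3198 and 2767 CPM with overexpression. MT-ND4 stood at 6706, 8151 and 7262 CPM in wild type and 7521, 6725 and 6199 CPM with overexpression. In both genes the wild-type range held most of the overexpression values. MT-ND5 (ENSG00000198786, chrM:12337-14148) spread widely among the wild-type libraries, at 3148, 2266 and 3689 CPM, against 3006, 2451 and 2543 CPM with overexpression. Its low value in wild-type replicate 2 went with the highest values of MT-CO1 and MT-CO2 in that library. MT-ND5 had a log2 fold change of -0.19 (SE 0.17, 95% interval -0.57 to 0.19, adjusted p = 0.94 by edgeR). It was -0.36 without wild-type replicate 2 and -0.022 without wild-type replicate 3, with no pass in either case.

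MT-ND3, MT-ND4L and MT-ND6 encode small membrane subunits of complex I. MT-ND3 stood at 343, 471 and 306 CPM in wild type and 401, 432 and 374 CPM with overexpression. Its log2 fold change of 0.11 (adjusted p = 0.96 by edgeR) was the highest among the mRNAs. MT-ND6 (ENSG00000198695, chrM:14149-14673) is the one mRNA read from the light strand. It stood at 306, 247 and 288 CPM in wild type and 311, 267 and 262 CPM with overexpression, or group means of 280.1 ± 30.1 and 280.0 ± 27.3 CPM (SD, n = 3 each). Because the strand was not recorded, reads of the heavy-strand precursor across this gene are counted with it. MT-ND4L stood at 1182, 1482 and 1327 CPM in wild type and 1322, 1257 and 1067 CPM with overexpression, and its share of the mitochondrial-genome count was 1.83 ± 0.10% and 1.71 ± 0.061% (SD, n = 3 each).

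Complex III, which passes electrons to cytochrome c, has a single mitochondrial gene, MT-CYB (ENSG00000198727, chrM:14747-15887), the subunit that binds its b-type hemes. Its levels were 2869.6, 3586 and 2715 CPM in wild type and 3098, 3080.4 and 2615 CPM with overexpression. Apart from a higher wild-type replicate 2 they were alike in range, and the log2 fold change was -0.061 (SE 0.13, adjusted p = 0.97 by edgeR).

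Complex IV, cytochrome c oxidase, had the most reads. Its 3 mRNAs made up 52.0 ± 2.75% and 52.1 ± 1.15% of the mitochondrial mRNA count (SD, n = 3 each). MT-CO1 (ENSG00000198804, chrM:5904-7445), the subunit with the oxygen-binding centre, stood at 15968, 23024.5 and 17569 CPM in wild type and 18116, 17496 and 16031 CPM with overexpression. Wild-type replicate 2 exceeded all other libraries, and the remaining 5 were close to each other. MT-CO2, which takes electrons from cytochrome c, stood at 6326, 8823 and 6455 CPM in wild type and 8213, 7541 and 6185 CPM with overexpression. MT-CO3 (ENSG00000198938, chrM:9207-9990), a structural core subunit, stood at 6653, 7971 and 6532 CPM in wild type and 6519, 6711 and 6096 CPM with overexpression. Its share of the mitochondrial-genome count was 9.95%, 9.52% and 9.59% in wild type and 8.59%, 9.38% and 9.40% with overexpression, lower in each overexpression library. The log2 fold changes of the complex IV mRNAs were -0.13 for MT-CO1, 0.022 for MT-CO2 and -0.13 for MT-CO3, none past the test (adjusted p of 0.94 or more by edgeR).

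ATP synthase has a pair of mitochondrial genes that share an mRNA. MT-ATP6 (ENSG00000198899, chrM:8527-9207) encodes the subunit that forms the proton path, and MT-ATP8 (ENSG00000228253, chrM:8366-8572) a small subunit of the peripheral stalk region. The end of MT-ATP8 is the start of MT-ATP6, as the GENCODE 29 transcript sequences on GRCh38 show, and MT-ND4L and MT-ND4 overlap in the same way. Both joins are printed because reads across them cannot be given to 1 gene; capitals mark the bases that belong to both genes.
chrM:8517-8582, plus strand, MT-ATP8 into MT-ATP6: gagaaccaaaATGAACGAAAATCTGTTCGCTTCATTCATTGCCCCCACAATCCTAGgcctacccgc
chrM:10750-10776, plus strand, MT-ND4L into MT-ND4: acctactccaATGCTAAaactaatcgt
The joins share 46 and 7 bases. The sources used here do not say how the authors' counting assigned reads there.

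MT-ATP6 stood at 7043, 7721 and 6664 CPM in wild type and 7792, 6288 and 5507 CPM with overexpression. Overexpression replicate 1 was the highest of the 6 libraries and replicate 3 the lowest. MT-ATP8 followed the same order, at 2089, 2226 and 1936 CPM in wild type and 2326, 1867 and 1677 CPM with overexpression. Their counts kept nearly 1 ratio, with MT-ATP8 at 28.8% to 29.7% of MT-ATP6 in wild type and 29.7% to 30.4% with overexpression, which did not overlap but lay close (exact permutation test, p = 0.1); over the MT-ATP6 count 3.89% of all tested genes were higher without overlap. MT-ND4L was 17.6% to 18.3% of MT-ND4 in wild type and 17.2% to 18.7% with overexpression. The log2 fold changes of MT-ATP6 and MT-ATP8 were -0.13 and -0.091, and neither passed (adjusted p of 0.95 and 0.96 by edgeR).

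The median log2 fold change of the 13 mRNAs was -0.091, with 3 above 0 and 10 below, although MT-ND6 at -0.00077 and MT-ND2 at -0.031 came out above 0 under some scalings, beside a median of 0.0060 over all tested genes. It moved to 0.072 with overexpression replicates 2 and 3 left out. Among the heavy-strand ribosomal RNAs and mRNAs, in gene order, the log2 fold changes ran downward from the ribosomal RNAs. They were 0.43 for MT-RNR1, 0.24 for MT-RNR2, 0.079 for MT-ND1, -0.031 for MT-ND2 and -0.13 for MT-CO1. The transfer RNAs of the same strand up to MT-CO1 did not share this course. MT-TF, MT-TV and MT-TL1 had 0.20, 0.25 and 0.18, and MT-TI, MT-TM and MT-TW had 0.29, 0.19 and 0.28. After MT-CO1 the heavy-strand mRNAs lay between -0.19 and 0.11 with no steady course. Spearman's rho between gene order and log2 fold change was -0.58 over the 14 heavy-strand mRNAs and ribosomal RNAs and -0.33 over the 12 mRNAs alone. These genes share precursors and libraries, so the value describes the order only. Across the 13 mRNAs the Pearson correlation of log2 fold change was -0.13 with GC content and -0.41 with gene length. With both ribosomal RNAs added (15 genes) it was -0.025 with GC content and -0.018 with gene length.

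The order of levels per length is given as mean TMM-scaled CPM per kilobase over the 6 libraries. MT-CO1 led at 11695, followed by MT-CO2 at 10610.0, MT-ATP6 at 10038, MT-ATP8 at 9760 and MT-CO3 at 8606. The order of MT-CO1, MT-CO2 and MT-ATP6 changed between libraries: MT-CO1 exceeded MT-CO2 in 5 of 6 and MT-CO2 exceeded MT-ATP6 in 4 of 6. Next stood MT-RNR2 at 5734 and MT-ND4 at 5148, whose order held in 4 of 6 libraries. MT-ND4L at 4286, MT-ND2 at 3005, MT-ND1 at 2694 and MT-CYB at 2624 came after, and MT-ND1 exceeded MT-CYB in only 3 of 6 libraries. MT-ND5 had 1573, MT-RNR1 1244, MT-ND3 1121 and MT-ND6 533 CPM per kilobase. MT-RNR1 had far fewer reads per length than MT-RNR2 of the same precursor, as counted after depletion of ribosomal RNA.

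**Figure D3:**
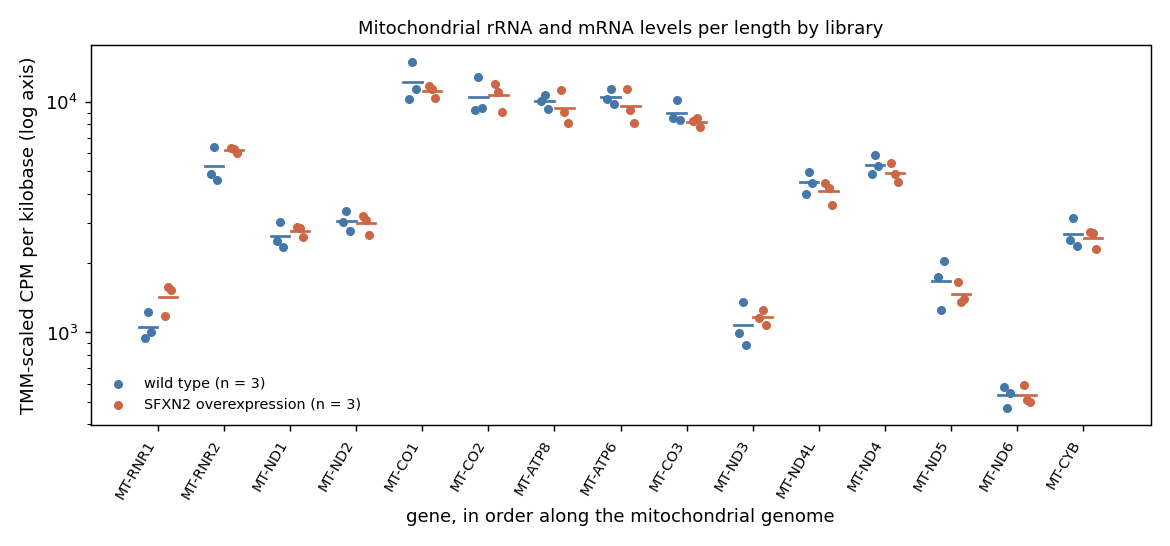
TMM-scaled CPM per kilobase of gene (y axis, log scale) for the 2 ribosomal RNAs and 13 mRNAs in genome order (x axis); points are libraries and short lines group means of 3. Levels run from 533 for MT-ND6 to 11695 for MT-CO1, while the groups overlap for each gene.

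In 6 of the 13 mRNA genes the length is not a multiple of 3. Human mitochondrial transcripts of this kind end inside the stop codon, which the poly(A) tail completes. The ends of these genes are shown because their annotated lengths set these 6 apart. MT-ATP6, whose annotated length is a multiple of 3, shares its last base with MT-CO3. Whether its mRNA ends inside the stop codon therefore cannot be told from the length. Capitals mark the bases left after the last whole codon.
MT-ND1, chrM:4246-4262: attccccctcaaaccTA
MT-ND2, chrM:5496-5511: atactaataatcttaT
MT-CO3, chrM:9975-9990: tattgatgagggtctT
MT-ND3, chrM:10389-10404: ttagactgaaccgaaT
MT-ND4, chrM:12122-12137: accgggttttcctctT
MT-CYB, chrM:15872-15887: atactcaaatgggccT
Their log2 fold changes lay on both sides of 0, from -0.13 for MT-CO3 to 0.11 for MT-ND3. The 7 mRNAs with an annotated length that is a multiple of 3 lay between -0.19 for MT-ND5 and 0.022 for MT-CO2.

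The 22 transfer RNAs together held 0.34%, 0.31% and 0.27% of the mitochondrial-genome count in wild type and 0.32%, 0.35% and 0.35% with overexpression, with overlapping groups (exact permutation test, p = 0.2). Their genes are 59 to 75 bases long, and how reads that reach into a neighbouring gene were counted cannot be told from the table. The transfer RNA for leucine MT-TL1, that for serine MT-TS1, those for tyrosine MT-TY and cysteine MT-TC, the 4 with most counts, held 81.1 ± 3.98% and 79.98 ± 1.76% of transfer RNA counts (SD, n = 3 each). MT-TL1 lies between MT-RNR2 and MT-ND1, and MT-TS1 lies opposite the sequence that follows MT-CO1. The sequences of 3 of the most counted and 3 of the least counted are shown to identify them, as the gene on its own strand, with the anticodon in capitals.
MT-TL1, chrM:3230-3304, plus strand: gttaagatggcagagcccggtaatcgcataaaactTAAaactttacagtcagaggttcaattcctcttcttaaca
MT-TS1, chrM:7446-7514, minus strand: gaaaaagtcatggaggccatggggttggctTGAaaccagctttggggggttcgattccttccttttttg
MT-TY, chrM:5826-5891, minus strand: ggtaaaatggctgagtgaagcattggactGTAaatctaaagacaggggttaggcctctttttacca
MT-TL2, chrM:12266-12336, plus strand: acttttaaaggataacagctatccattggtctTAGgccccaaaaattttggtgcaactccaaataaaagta
MT-TR, chrM:10405-10469, plus strand: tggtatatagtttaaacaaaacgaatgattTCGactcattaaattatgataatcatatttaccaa
MT-TG, chrM:9991-10058, plus strand: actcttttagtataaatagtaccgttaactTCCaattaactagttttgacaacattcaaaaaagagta
The anticodon was found as the 1 match of T, the triplet and a purine between bases 25 and 42.

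MT-TL1 had 2548, 3683 and 2228 counts in wild type and 3418, 4951 and 5205 counts with overexpression, which is 80.7, 89.5 and 63.0 CPM and then 88.0, 90.03 and 85.2 CPM. Wild-type replicate 3 was the low library, and the log2 fold change was 0.18 (SE 0.13, adjusted p = 0.93 by edgeR). MT-TS1 stood at 55.9, 77.6 and 55.9 CPM in wild type and 61.3, 62.0 and 56.0 CPM with overexpression. Its counts were 0.32% to 0.35% of those of MT-CO1 in all 6 libraries, including wild-type replicate 2, where both were highest. As MT-CO1 mRNA is known to extend across this gene on the other strand, MT-TS1 reads cannot be told apart from reads of that extension in these unstranded libraries. MT-TY stood at 26.2, 39.7 and 24.9 CPM in wild type and 31.8, 34.6 and 32.2 CPM with overexpression, and MT-TC at 11.4, 14.1 and 10.1 CPM against 12.9, 13.5 and 13.1 CPM. Both had a wide wild-type range that enclosed all overexpression values. Over the mitochondrial mRNA count MT-TC was at 0.0195%, 0.0195% and 0.0168% in wild type and 0.0199%, 0.0224% and 0.0243% with overexpression, just without overlap.

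MT-TF and MT-TV, which carry phenylalanine and valine, flank MT-RNR1. MT-TF stood at 9.91, 8.04 and 4.01 CPM in wild type and 9.71, 9.71 and 5.76 CPM with overexpression. MT-TV stood at 8.51, 7.17 and 4.52 CPM in wild type and 8.52, 9.86 and 5.73 CPM with overexpression. In both genes replicate 3 was the lowest library of each group, a pattern that MT-RNR1 between them did not share. The count of MT-TF was 1.09%, 0.69% and 0.42% of that of MT-RNR1 in wild type and 0.87%, 0.64% and 0.39% with overexpression, again lowest in replicate 3 of each group.

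A cluster of transfer RNAs follows MT-ND1. MT-TI, for isoleucine, stood at 4.94, 3.06 and 3.31 CPM in wild type and 4.45, 4.55 and 4.84 CPM with overexpression. MT-TQ, for glutamine on the other strand, stood at 5.25, 3.30 and 3.56 CPM and then 4.56, 4.80 and 4.55 CPM. MT-TM, for methionine, stood at 4.34, 4.30 and 3.28 CPM and then 4.30, 5.18 and 4.16 CPM. In MT-TI and MT-TQ wild-type replicate 1 was the highest of the 6 libraries, and in all 3 genes the groups overlapped.

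The next cluster follows MT-ND2 and holds, beside MT-TC and MT-TY, 3 transfer RNAs of low count. MT-TW, for tryptophan, stood at 0.92, 0.51 and 0.51 CPM in wild type and 0.93, 0.78 and 0.64 CPM with overexpression. MT-TA, for alanine, stood at 0.82, 0.39 and 0.51 CPM and then 0.90, 0.67 and 0.70 CPM, and MT-TN, for asparagine, at 0.70, 0.24 and 0.48 CPM and then 0.77, 0.53 and 0.59 CPM. Replicate 1 was the highest library of each group in these genes, whose mean counts were 24.0 to 31.0.

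MT-TD, for aspartate, lies before MT-CO2 and stood at 4.02, 3.42 and 2.35 CPM in wild type and 3.30, 3.55 and 3.14 CPM with overexpression. MT-TK, for lysine, lies after MT-CO2 and stood at 1.17, 1.29 and 0.85 CPM and then 1.29, 1.47 and 1.24 CPM. MT-TH, for histidine, lies after MT-ND4 and stood at 0.54, 0.53 and 0.34 CPM and then 0.72, 0.71 and 0.39 CPM. Replicate 3 was again the lowest library of each group in all 3.

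Around MT-CYB lie MT-TE, for glutamate, MT-TT, for threonine, and MT-TP, for proline. MT-TE stood at 7.09, 4.57 and 4.64 CPM in wild type and 6.44, 5.91 and 6.02 CPM with overexpression. MT-TT stood at 2.56, 2.74 and 1.92 CPM and then 2.81, 2.96 and 1.59 CPM, and MT-TP at 1.90, 1.75 and 1.27 CPM and then 2.57, 1.62 and 1.00 CPM. For MT-TT and MT-TP overexpression replicate 3 was the lowest of all 6 libraries.

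Of the 18 tested, 17 had a log2 fold change above 0, MT-TS1 being the exception at -0.080, with a median of 0.20. Over all tested genes 9622 were above 0 and 9175 below. MT-TT and MT-TP also came out below 0 with limma-voom and with the replicate block. The transfer RNAs share precursors and libraries, so the 17 are not separate observations. Their median log2 level against the wild-type mean was 0.28, 0.13 and -0.26 in wild type and 0.25, 0.28 and 0.099 with overexpression. None passed in edgeR, against 0.0106% of all tested genes, a share too low for this to set them apart. The smallest unadjusted p of the transfer RNAs in edgeR was 0.20. Their SE had a median of 0.27 against 0.13 for the mRNAs, and MT-TN, at 0.42, had an SE of 0.46. MT-TG, MT-TS2, MT-TR and MT-TL2 were not tested, with 2 to 11 counts in each library. At these counts the non-overlapping shares of MT-TG, MT-TR and MT-TL2 rest on a few reads.

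**Figure D4:**
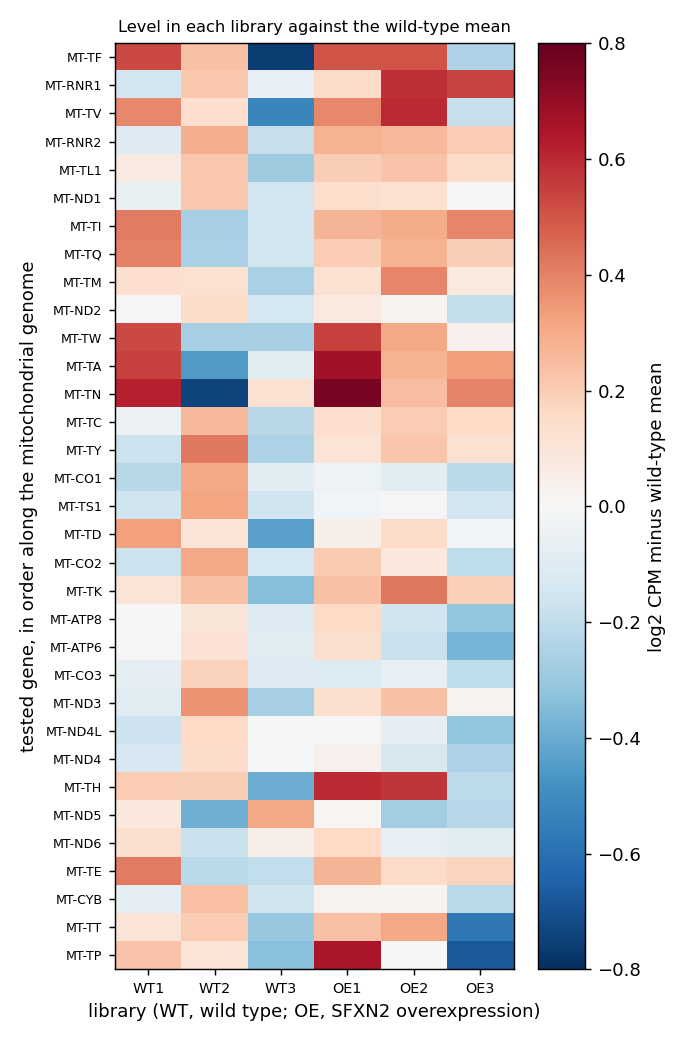
Log2 CPM of each tested gene minus its wild-type mean (colour, scale -0.8 to 0.8) in the 6 libraries (columns; WT wild type, OE SFXN2 overexpression), with genes in genome order (rows). MT-RNR1 is highest in OE2 and OE3, MT-ND5 lowest in WT2, and MT-TF and MT-TV are lowest in WT3.

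Nuclear chromosomes hold old copies of mitochondrial DNA, whose gene models can take reads from the mitochondrial genes. Of such models 62 had a count, 8 were tested and 0 passed in edgeR, against 0.0106% of all tested genes. With a share that low, 0 of 8 does not set the models apart. The 5 with the most counts all lie in one stretch of chromosome 1, from 629062 to 634922 in GRCh38. MTATP6P1 had 20608, 29940 and 23066 counts in wild type and 29913, 36074 and 37242 counts with overexpression. This was 9.26%, 9.42% and 9.79% of the MT-ATP6 count and then 9.88%, 10.4% and 11.1%. MTCO1P12 had 2.04%, 2.26% and 2.24% of the MT-CO1 count in wild type and 2.36%, 2.82% and 3.05% with overexpression. For MTND2P28 the ratio to MT-ND2 was 7.84%, 8.26% and 8.64%, against 8.69%, 9.97% and 10.3%.

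The ratio of copy to mitochondrial gene did not overlap between the groups in any of these 5 models (exact permutation p = 0.1 each, the smallest possible), and it was highest in overexpression replicates 2 and 3. Of all tested genes, the share that was higher without overlap was 3.89% over the MT-ATP6 count, 4.19% over MT-CO1, 3.15% over MT-ND2, 1.67% over MT-ND1 and 9.46% over MT-CO3. MTND1P23 had 70, 141 and 91 counts in wild type and 147, 316 and 372 counts with overexpression. Its log2 fold change was 0.93 (SE 0.27, unadjusted p = 0.0069, adjusted p = 0.93 by edgeR), larger than that of any mitochondrial gene tested. MTCO3P12 had 53, 112 and 84 counts in wild type and 94, 283 and 281 counts with overexpression, and its log2 fold change of 0.84 did not pass either (adjusted p = 0.93 by edgeR). The other tested models were MTCO2P12, MTRNR2L12 and MTATP8P1, with log2 fold changes of 0.16, 0.57 and -0.61. Their mean counts were 38.2, 12.2 and 9.67, and no ratio was taken for them. How reads were divided between a mitochondrial gene and its copy cannot be told from the counts and the levels of both are uncertain to an extent the table does not give. The part of depth, highest in the same 2 libraries, was not tested.

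**Figure D5:**
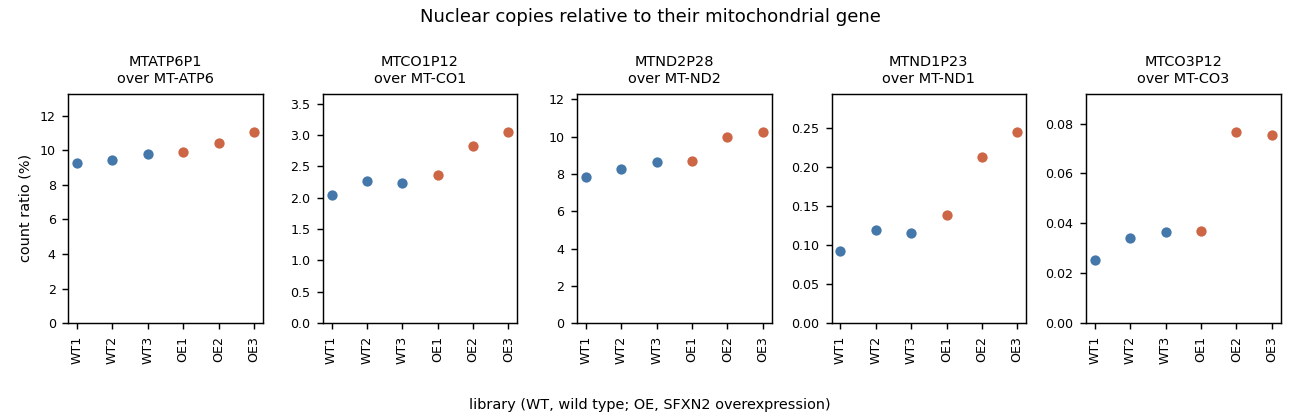
Counts of 5 nuclear copies as a percentage of the count of the corresponding mitochondrial gene (y axes from 0) in each library (x axis; WT wild type, OE SFXN2 overexpression). In each panel the overexpression libraries lie above the wild-type ones, with OE1 close to the wild-type range and OE2 and OE3 apart from it.

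Nuclear genes that transcribe, process, modify and maintain the mitochondrial genome did not pass either. Of the 50 listed factors all 50 were tested and 0 passed in edgeR, against 0.0106% of all 18797 tested genes. With a share that low, 0 of 50 does not set the factors apart. Their log2 fold changes were above 0 in 35 and below in 15, with a median of 0.065. Over all tested genes 9622 were above 0 and 9175 below, with a median of 0.0060. POLRMT, the polymerase itself, stood at 113, 94.2 and 125 CPM in wild type and 112, 89.6 and 97.0 CPM with overexpression. TFAM, which packs mitochondrial DNA and starts transcription, stood at 131, 111 and 123 CPM and at 129, 122 and 128 CPM. LRPPRC, which protects mitochondrial mRNAs, stood at 252, 284 and 274 CPM and at 279.9, 259 and 275 CPM. All 3 overlapped between the groups.

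The factors with the smallest unadjusted p were MTO1, a transfer RNA modification enzyme (log2 fold change 0.27), TOP1MT, the mitochondrial topoisomerase I (-0.26), and FASTK, which acts on MT-ND6 mRNA (-0.22), each with adjusted p = 0.93 by edgeR. The levels of 4 factors did not overlap between the groups, against 9.16% of all tested genes, which is close to that background. Of them 2 were higher (background 4.91%) and 2 lower (4.25%). They were MTERF1, a transcription terminator that binds within MT-TL1, and MTERF4, a factor of ribosome assembly, both higher, and FASTK and MTERF2 lower; apart from FASTK they are named after their values were seen. MTERF1 stood at 14.5, 13.4 and 14.7 CPM in wild type and 15.1, 17.1 and 16.7 CPM with overexpression, with adjusted p = 0.93 by edgeR.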

How the data were processed

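RNA of 6 HEK293 libraries, 3 per group, was processed, per the labels' protocols, by removal of ribosomal RNA and the TruSeq RNA v2 kit. Trim Galore 0.4.4 and the build hg38 are named per the submitters' processing notes. The sources used here give no aligner, counting tool or annotation. The authors deposited raw counts for 60564 genes, per the file headers, and their log2 table was not used here. GENCODE 29 (GRCh38) gave positions, lengths and sequences for all 37 members by Ensembl ID.

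The whole table was tested with edgeR 4.0.16 under R 4.3.3: TMM, filterByExpr with a minimum count of 10 (18797 genes), robust quasi-likelihood F-test on group, Benjamini-Hochberg adjustment, threshold 0.05. The SE is the log2 fold change over the square root of F. Shares and ratios were compared by two-sided exact permutation over libraries. The procedure was tested on simulated data, in which the changed genes had larger log2 fold changes than any member. That test does not cover changes of the members' size. Members and lists were chosen with earlier results of these data known. All members are described, with the 5 nuclear copies of highest mean count and, of the factors, the 3 with the smallest p plus LRPPRC, TFAM and POLRMT. RN7SK and other names outside this rule were chosen after their values were seen.

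Deviations from the group means over all genes correlated between libraries of equal number (0.24, 0.33 and 0.19). Between libraries of unequal number the correlations ran from -0.26 to -0.074. Deviations from a group mean cancel within the group, so these negative values follow in part from the positive ones. They are not separate evidence of pairing. Because of the positive values the numbers were taken as pairs in an alternative fit. The main fit and the exact permutation tests were unpaired. No label states a pairing. Alternatives were scaling by library size alone or by median of ratios, TMM without mitochondrial genes, scaling to the mitochondrial-genome total, DESeq2 1.42.0, limma-voom (limma 3.58.1), other filters, the replicate block, and leaving out each library.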

Additional observations from a re-analysis of the deposited data

How the results depend on the processing

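No mitochondrial-genome gene and no listed nuclear factor passed under any scaling, tool or filter tried, an adjusted p threshold of 0.01, the replicate block or the loss of any library (0 in each). With the replicate block, taking libraries of the same number as pairs, MT-RNR1 had a log2 fold change of 0.43 (edgeR adjusted p = 0.60). The ribosomal RNA share was higher in all 3 pairs (exact sign flips, p = 0.25, the smallest possible). The block changed no call among the members and the factors. Over all tested genes the main fit called 2 and the fit with the block 1. The ribosomal RNA share difference ranged from 2.51 to 3.62 percentage points when leaving out each library. Against the mitochondrial mRNA count 3 in place of 5 of the 15 mRNAs and ribosomal RNAs had non-overlapping shares, and over all counts the ribosomal RNA difference was 0.20 percentage points with overlapping groups (exact permutation test, p = 0.3). Without overexpression replicates 2 and 3 the median of the 13 mRNAs was 0.072, and leaving out single libraries gave -0.14 to 0.0029.

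Small values changed sign, in cases where none was called. Leaving out single libraries, the difference in percentage points ranged from -0.41 to 0.48 for the mitochondrial share of all counts, -0.032 to 0.060 for MT-ND6, -1.03 to 0.87 for complex I, -0.019 to 0.19 for complex III, -0.95 to 1.68 for complex IV and -1.14 to 0.13 for complex V. Log2 fold changes ranged from -0.14 to 0.25 (MT-TT), -0.086 to 0.059 (MT-ND6), -0.098 to 0.47 (MT-TF), -0.099 to 0.044 (MT-ND2), -0.0051 to 0.36 (MT-TY), -0.072 to 0.19 (MT-CO2), -0.016 to 0.31 (MT-ND3), -0.17 to 0.095 (MT-TS1), -0.14 to 0.069 (MT-CYB), -0.33 to 0.34 (MT-TP), -0.16 to 0.20 (MT-TD), -0.24 to 0.037 (MT-CO1) and -0.24 to 0.0029 (MT-ATP8). MT-ND6 became 0.025 with library size alone, 0.015 scaled to the mitochondrial-genome total, 0.0010 with limma-voom, 0.0034 with a filter of 1 CPM and 0.00052 with the block. MT-ND2 became 0.0050 scaled to the mitochondrial-genome total. MT-TT and MT-TP became -0.047 and -0.069 with limma-voom and -0.0078 and -0.00065 with the block. The cause was not tested. Depth limits the 4 untested transfer RNAs, at 2 to 11 counts a library.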
